A study of Homo sapiens with 6 samples.

Results

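The genes described here encode proteins that airway and alveolar epithelium secretes for defence against microbes or handles as part of pulmonary surfactant: SAA1, SAA2, LCN2, SLPI, WFDC2, PIGR, SCGB3A1, SFTPB, SFTPD and NAPSA. They were chosen by name as the rows of the deposited expression table that carry 1 of these 10 symbols, and all 10 were found among 51537 genes. RNA came from H3122 cells, an established human line from a lung adenocarcinoma in which EML4 is fused to ALK, a receptor tyrosine kinase gene; both groups are of this line. The control group had 3 libraries of H3122 cells, labelled control. The resistant group had 3 libraries of H3122 cells that were made crizotinib-resistant (H3122CR) by exposure to crizotinib, an inhibitor of ALK and MET, stepped up from 0.1 to 10 µM. The labels say that the drug was kept up in culture, but not whether it was present at harvest, whether the resistant line is 1 clone or whether replicates were separate cultures. The p-values thus rest on the variation among these 6 libraries alone, and that variation may be technical.

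These genes serve surfaces rather than the cell that makes them. Serum amyloid A proteins are acute-phase lipid carriers that rise with cytokine signals through NF-kB, STAT3 and C/EBP factors. Lipocalin 2 withholds iron from bacteria by binding their siderophores, SLPI blocks neutrophil serine proteases, and the polymeric immunoglobulin receptor carries IgA across the epithelium. Surfactant proteins B and D are products of alveolar type 2 cells, as is napsin A, a protease that helps to process surfactant protein B; the lineage factor NKX2-1 is known to drive several of them.

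The members covered a wide range of levels, from abundant to hardly detected. SLPI and LCN2 together made up almost all of the members' summed level, which lay between 794 and 882 TPM in control libraries and between 907 and 996 TPM in resistant ones (TPM is a length-scaled abundance that sums to 1000000 in a library). SAA1, SAA2, WFDC2 and LCN2 were higher in the resistant cells, SLPI and NAPSA did not pass the test, and PIGR, SCGB3A1, SFTPB and SFTPD were below 0.469 TPM or at that value in every library. Expressed and low genes were found on both sides of the set: PIGR and SCGB3A1 were low among the defence genes, as was SAA2 in the control libraries, and NAPSA was the surfactant gene above 1 TPM.

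The test was limma on log2(TPM + 1) over the 16077 genes that reached 1 TPM in 3 or more libraries, with Benjamini-Hochberg adjustment and a threshold of 0.05. Of the 10 members, 6 met this filter: SLPI, LCN2, WFDC2 and NAPSA with at least 1 TPM in all 6 libraries, and SAA1 and SAA2 through their resistant libraries, so that the latter pair could hardly be tested without differing. The same limit holds for other genes below that met the filter through 1 group alone, and the list counts include such genes. Over all genes, 48.6% were called, 24% higher and 24.7% lower in the resistant cells, so a call alone sets no gene apart here. Among the members 4 were called higher and 0 lower by limma, and at an unadjusted p under 0.05 the counts were also 4 and 0; limma-voom called 5 higher and 0 lower. The resistant libraries all lay above all control libraries for the same 4 members, which was so for 29.2% of the genes tested (57.9% did not overlap in either direction). A call with a log2 change of at least 1 was rarer, at 3.71% of genes higher and 2.28% lower, and SAA1, SAA2 and WFDC2 had one. Each library held an estimated 29856927 to 36695580 reads, rebuilt from the TPM values and gene lengths.

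**Figure D1:**
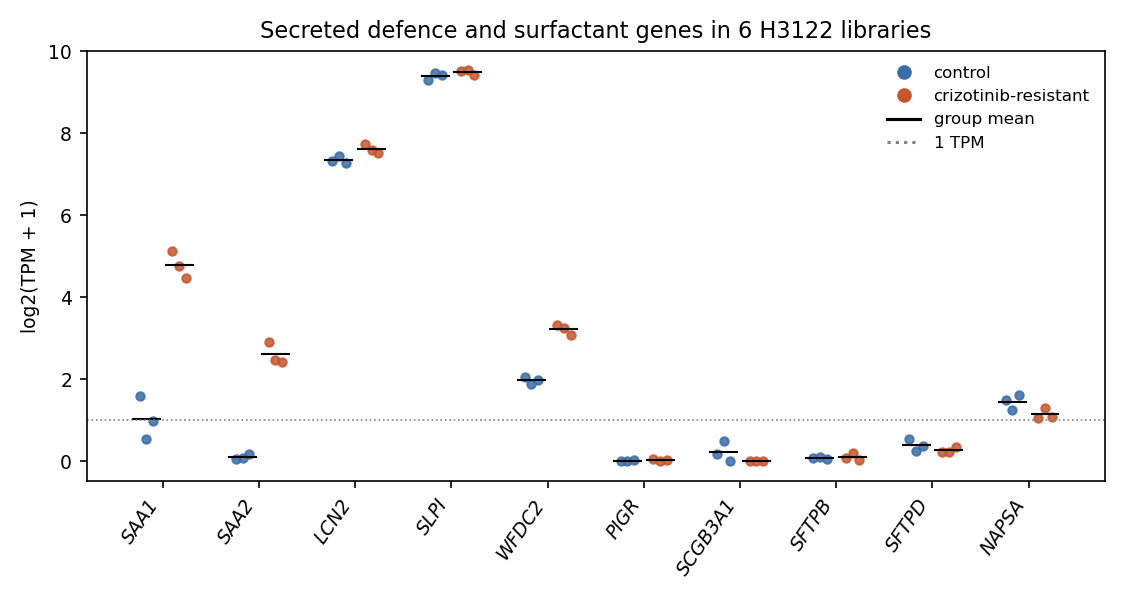
Level of the 10 members as log2(TPM + 1) in each of the 3 control (blue) and 3 resistant (orange) libraries, with a black bar at the mean of the log2 values of each group and a dotted line at 1 TPM. SLPI and LCN2 stand far above the others in both groups, SAA1, SAA2 and WFDC2 separate by group, and PIGR, SCGB3A1, SFTPB and SFTPD lie under the line in all 6 libraries.

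SAA1 and SAA2 were the members with the largest differences. They lie next to each other on chromosome 11 (GENCODE 29 on GRCh38): SAA1 (ENSG00000173432) at 18266174 to 18269977 on the plus strand and SAA2 (ENSG00000134339) at 18239223 to 18248643 on the minus strand. The last part of their coding sequences, bases 201 to 366, is shown because the pair is so alike that short reads may not tell them apart. Each is from 1 GENCODE 29 transcript of the gene, 5′ to 3′, and capitals mark the bases at which they differ.
SAA1: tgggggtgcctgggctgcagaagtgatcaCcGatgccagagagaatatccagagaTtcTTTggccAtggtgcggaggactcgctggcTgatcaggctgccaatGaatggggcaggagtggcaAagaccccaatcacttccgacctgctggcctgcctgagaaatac
SAA2: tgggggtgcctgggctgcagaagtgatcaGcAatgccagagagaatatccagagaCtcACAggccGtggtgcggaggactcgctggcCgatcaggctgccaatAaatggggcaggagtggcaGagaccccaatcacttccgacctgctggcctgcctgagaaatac
Of all 366 coding bases, 11 differ (97.0% identical), 10 of them in the stretch shown, and the longest stretch without a difference is 186 bases. Of the 50-base windows of the whole SAA1 transcript, 34.1% occur exactly in that of SAA2, and 37.5% of those of SAA2 occur in that of SAA1. How the authors' counting treated such reads is not given in the sources used here, so the split of reads between the pair is uncertain.

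SAA1 was at 2.01, 0.463 and 0.996 TPM in the control libraries and at 34.3, 26.2 and 21.2 TPM in the resistant libraries. The groups were far apart: every resistant library lay far above every control library, although the spread within each group was wide. The mean went from 1.16 ± 0.788 to 27.2 ± 6.64 TPM (SD, n = 3 each), a log2 change of 3.75 ± 0.29 (SE, adjusted p = 9.16e-05). On this log2(TPM + 1) scale it was the third largest rise of the 16077 genes tested, which is not a rank of the ratio of TPM values. SAA2 was at 0.0494, 0.0530 and 0.128 TPM in the control libraries, an estimated 1, 1 and 3 reads. In the resistant libraries it was at 6.59, 4.60 and 4.40 TPM, an estimated 138, 93 and 95 reads. Every resistant library thus held SAA2 reads in number, while the control libraries held next to none. The log2 change of SAA2 was 2.51 ± 0.17 (adjusted p = 3.21e-05), but a log2(TPM + 1) scale compresses so low a gene: it was 4.91 with a pseudocount of 0.1 and 5.76 with limma-voom on the rebuilt reads. In these settings SAA1 was at 4.62 and 4.69, below SAA2. As reads per rebuilt total, summed over 3 libraries, SAA2 was 66.7-fold higher in the resistant cells (95% exact interval 28.3 to 207, counting error only).

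The level of SAA1 relative to SAA2 depends on the gene length used. In TPM, SAA1 exceeded SAA2 by 4.81 to 5.70 times in the resistant libraries, whereas in estimated reads it did so by 1.72 to 2.04 times. The read estimates of SAA1 were not whole in the control libraries, so its length here may differ from the authors' and the read ratio is uncertain. The joined exons of all SAA2 transcripts span 2227 bases and those of SAA1 796 bases, while the 2 transcripts compared above are 563 bases long for SAA2 and 615 for SAA1. In the control libraries SAA2 rested on too few reads for such a ratio to be read.

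The other serum amyloid A genes were low. SAA4, which encodes a constitutive family member of liver, was at 0, 0 and 0.131 TPM in control libraries and 0.293, 0.455 and 0.994 TPM in the resistant libraries. It was under the filter and was not tested. SAA3P, a pseudogene, was listed at 0 in 5 libraries and at 0.158 TPM in resistant replicate 3, and the readthrough gene SAA2-SAA4, which shares 267 exon bases with SAA2, was listed at 0 in all 6. Of 15 protein-coding genes within 250 kb of the pair, itself included, 8 were tested, of which 4 rose, 2 fell and 2 did not pass. Besides SAA1 and SAA2 these were SAAL1, a gene named for its likeness to the family, at 32.6 ± 1.65 and 47.9 ± 2.35 TPM (log2 0.54), LDHA, a lactate dehydrogenase subunit, at 884 and 1148 TPM (log2 0.38), and the falling GTF2H1 (log2 -0.34) and TSG101 (log2 -0.15). The neighbours were named after their values were seen, and their changes were much smaller than those of SAA1 and SAA2. Of 11 serum amyloid A relatives and receptors in the list, SAA4 and SAA3P included, 8 were under 1 TPM in all 6 libraries and 3 were tested, of which 1 rose, 1 fell and 1 did not pass. TLR4, a receptor of innate immunity that was named after its values were seen, rose from 1.24 ± 0.130 to 2.29 ± 0.216 TPM (log2 0.55). SCARB1, a lipoprotein receptor, was at 38.8 ± 1.23 and 38.8 ± 2.59 TPM and did not pass the test, while AGER, the receptor for advanced glycation end products, fell from 11.2 ± 1.78 to 6.61 ± 0.530 TPM (log2 -0.67).

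**Figure D2:**
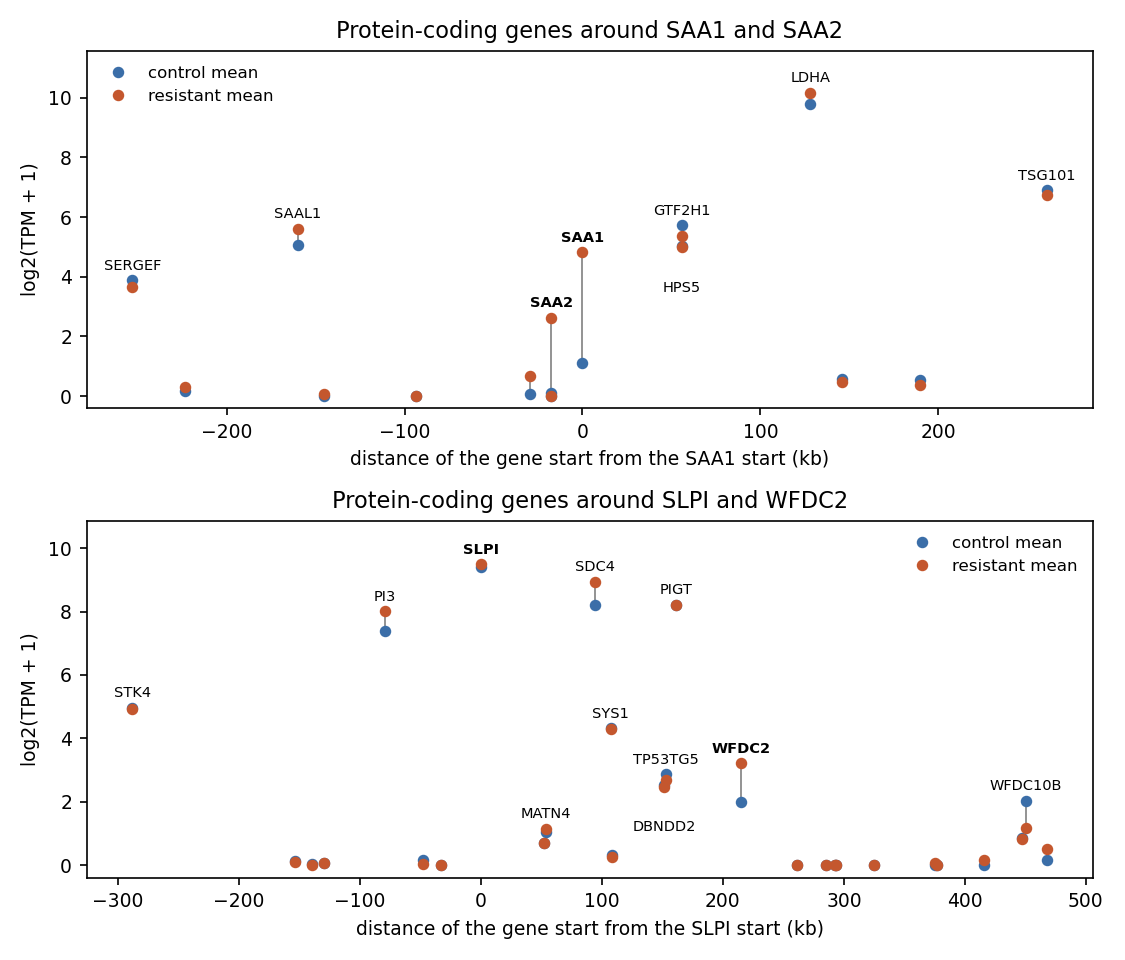
Mean level, as log2(TPM + 1), of the protein-coding genes around SAA1 and SAA2 (top) and around SLPI and WFDC2 (bottom) in control (blue) and resistant (orange) libraries, against the distance of each gene's start from that of SAA1 or SLPI in kb; a grey line joins the means of a gene, genes at 1 TPM or more are named, and the 4 members are in bold. SAA1 and SAA2 show long lines among neighbours with short ones, and WFDC2 separates while SLPI does not; the orange point at 0 under SAA2 is SAA2-SAA4.

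LCN2 (ENSG00000148346, chromosome 9, 128149071 to 128153455, plus strand) was one of the abundant members and differed modestly. It was at 159, 173 and 154 TPM in the control libraries and at 211, 192 and 184 TPM in the resistant libraries. The groups did not overlap, but the gap between the highest control and the lowest resistant library was about as small as the spread within a group. The mean was 162 ± 10.2 TPM in control and 195 ± 14.3 TPM in resistant cells, 1.21 times higher (log2 0.27 ± 0.07, 95% interval 0.11 to 0.43, adjusted p = 0.0128). The call was lost without control replicate 3 (log2 0.23, adjusted p = 0.0509). In rank, LCN2 stood between places 826 and 958 among all genes in the control libraries and between 624 and 758 in the resistant ones.

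LCN2 and WFDC2 are the members that rose and have an entry in the RefSeq promoter table (GRCh38.p14), which matched 7 of the 10 members. Their bases before the RefSeq start and outside annotated exons of the gene are shown to compare what the windows hold. Capitals mark a match to 1 of 5 motifs searched on both strands: the NF-kB consensus, the C/EBP core TTGCNNAA, the STAT motif TTCNNNGAA, the NKX2-1 motif TNAAGTG and the FOXA motif TNTTTAC. The LCN2 stretch is chr9:128149265-128149440 on the plus strand and that of WFDC2 chr20:45469503-45469705, also on the plus strand.
LCN2: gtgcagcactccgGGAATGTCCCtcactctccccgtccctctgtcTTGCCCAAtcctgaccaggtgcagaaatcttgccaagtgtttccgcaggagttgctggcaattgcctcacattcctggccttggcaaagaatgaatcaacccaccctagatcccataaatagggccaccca
WFDC2: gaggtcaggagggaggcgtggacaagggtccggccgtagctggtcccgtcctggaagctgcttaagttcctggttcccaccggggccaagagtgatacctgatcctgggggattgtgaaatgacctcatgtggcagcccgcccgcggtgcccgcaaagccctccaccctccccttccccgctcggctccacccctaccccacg
The LCN2 window held an NF-kB match that begins 175 bases before the start and a C/EBP match that begins 143 bases before it. These 2 matches do not overlap. Over all 35116 promoter windows of the same 250 bases, 10.0% held the NF-kB consensus and 9.1% the C/EBP core, so such matches are common. The WFDC2 window held none of the 5 motifs. Among the other members with an entry, the SFTPD window held a C/EBP match that begins 193 bases before the start, and the windows of PIGR, SFTPB, SCGB3A1 and NAPSA held none. The STAT, NKX2-1 and FOXA motifs, which occurred in 6.6%, 8.7% and 9.6% of all windows, were in no window of a member.

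The lipocalin family apart from LCN2 was mostly silent. Of 19 relatives and partners, 13 were under 1 TPM in all 6 libraries, and of 5 tested 1 rose, 1 fell and 3 did not pass. APOD, a lipocalin that binds small lipids, was the most abundant of them at 50.4 ± 2.56 and 46.7 ± 1.66 TPM and did not pass the test. RBP4, the retinol carrier, rose from 3.66 ± 0.277 to 5.60 ± 0.954 TPM (log2 0.49). MMP9, a gelatinase that forms a complex with lipocalin 2, fell from 2.42 ± 0.665 to 1.12 ± 0.189 TPM (log2 -0.67) and was named after its values were seen.

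SLPI (ENSG00000124107, chromosome 20, 45252239 to 45254564, minus strand) was the most abundant member in every library. It was at 627, 704 and 681 TPM in the control libraries and at 733, 741 and 689 TPM in the resistant libraries. The groups overlapped, since resistant replicate 3 lay below control replicate 2. The mean was 671 ± 39.2 and 721 ± 28.2 TPM, and the log2 difference of 0.10 ± 0.05 (95% interval -0.02 to 0.23) did not pass the test (adjusted p = 0.143). With limma-voom on rebuilt reads the difference passed (log2 0.14, adjusted p = 0.0167). SLPI ranked between places 141 and 158 among all genes in the 6 libraries, and the interval excludes a rise as large as that of WFDC2.

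WFDC2 (ENSG00000101443, chromosome 20, 45469706 to 45481532, plus strand), which encodes the secreted protein HE4 with the same whey acidic protein fold as SLPI, was a low gene that rose. It was at 3.18, 2.73 and 2.96 TPM in the control libraries and at 9.0, 8.53 and 7.47 TPM in the resistant libraries. All 3 resistant libraries lay well above the control libraries and the spread within groups was small. The mean went from 2.96 ± 0.226 to 8.33 ± 0.787 TPM, 2.82 times higher (log2 1.23 ± 0.10, adjusted p = 6.48e-05), on an estimated 32 to 43 reads per control and 100 to 117 reads per resistant library.

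SLPI and WFDC2 lie 215.1 kb apart, start to start, in the whey acidic protein cluster of chromosome 20. Of 28 protein-coding genes within 250 kb of them, themselves included, 11 were tested: 3 rose, 1 fell and 7 did not pass, so 17 were below the filter. PI3, which encodes the elastase inhibitor elafin was at 152, 185 and 163 TPM in the control and 291, 246 and 237 TPM in the resistant libraries. Its groups did not overlap and it rose by 1.55 times (log2 0.63 ± 0.10, adjusted p = 0.00150). SDC4, a heparan sulfate proteoglycan of the cell surface between SLPI and WFDC2, rose from 293 ± 8.78 to 490.4 ± 8.28 TPM (log2 0.74), and PIGT, a subunit that attaches lipid anchors, was at 292 and 296 TPM. Of the 17 family members in the list beside SLPI and WFDC2, 11 were under 1 TPM in all 6 libraries, 4 were tested, 1 rose, 2 fell and 1 did not pass. WFDC3 was at 17.2 ± 2.32 and 17 ± 2.15 TPM, and WFDC10B fell from 3.08 ± 0.330 to 1.25 ± 0.731 TPM (log2 -0.90). SDC4, PIGT, WFDC3 and WFDC10B were named after their values were seen.

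**Figure D3:**
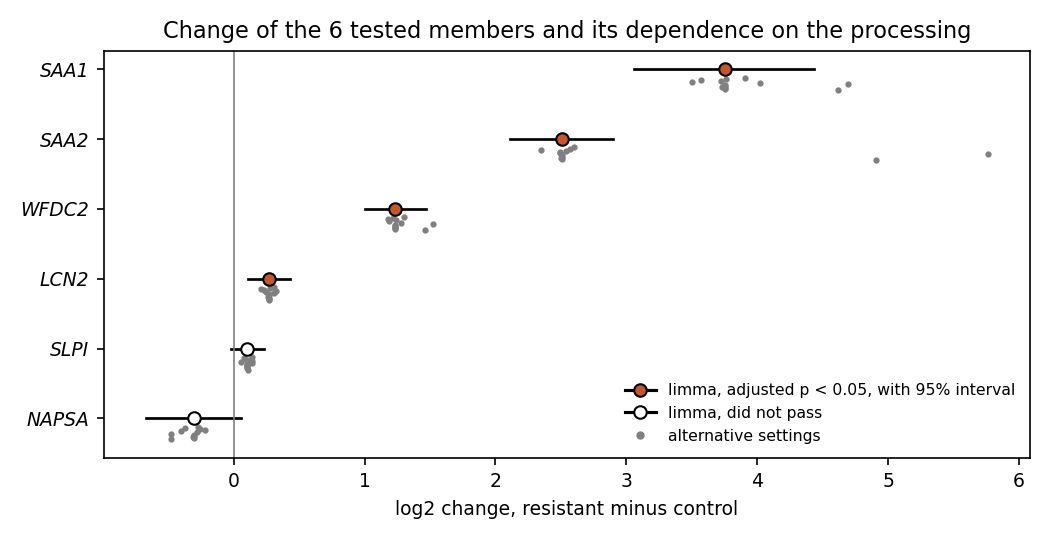
Log2 change, resistant minus control, of the 6 tested members, with circles for the limma estimate on log2(TPM + 1) (orange where the adjusted p was below 0.05, white where not), black lines for its 95% interval and grey dots for the alternative settings, of which a pseudocount of 0.1 and limma-voom use scales of their own. SAA1 at 3.75, SAA2 at 2.51 and WFDC2 at 1.23 lie away from 0 under each setting in which they were tested, LCN2 at 0.27 lies near it, and the intervals of SLPI and NAPSA include it.

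PIGR and SCGB3A1 were at or near 0. PIGR (ENSG00000162896, chromosome 1, 206928518 to 206946466, minus strand) was at 0, 0 and 0.0218 TPM in the control and 0.0486, 0 and 0.0236 TPM in the resistant libraries, with an estimated 2 reads at most. SCGB3A1 (ENSG00000161055, chromosome 5, 180590103 to 180591540, minus strand), a secretoglobin of airway secretory cells, was at 0.130, 0.418 and 0 TPM in the control libraries and listed at 0 in the 3 resistant libraries. The 2 control values stand for an estimated 1 and 3 reads. Neither gene was tested, and no difference was detectable at this depth. In bulk RNA, fewer cells that express such a gene and less RNA per cell cannot be told apart. FABP5, a fatty acid binding protein gene that has pseudogene copies and is widely expressed in epithelial lines, was also listed at 0 in all 6 libraries, and whether a listed 0 here stands for an absent transcript was not tested.

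Genes around PIGR were expressed in part. Of 18 genes for immunoglobulin transport and the control of PIGR, 11 were tested, of which 5 rose, 1 fell and 5 did not pass. RAB25, a vesicle GTPase of apical recycling, rose from 202 ± 7.33 to 226 ± 4.97 TPM (log2 0.16), IRF2, a transcription factor, from 25.9 ± 1.08 to 36.2 ± 1.58 TPM (log2 0.47), and RELB, an NF-kB subunit, from 9.91 ± 0.630 to 16.3 ± 0.757 TPM (log2 0.66). RAB3D, a secretory vesicle GTPase, fell from 62.1 ± 1.39 to 48.8 ± 5.09 TPM (log2 -0.35). JCHAIN, which joins the IgA that the receptor carries, and FCAMR, another immunoglobulin receptor, were listed at 0 in all 6 libraries, and FCGRT, the neonatal Fc receptor subunit, was at 0.137 TPM or less. Of the 10 other secretoglobin genes, 8 were under 1 TPM in all 6 libraries and the 1 tested did not pass. SCGB1A1, the club cell secretoglobin, was at 0.164 to 0.203 TPM in the control libraries and at 0.731, 0.189 and 1.60 TPM in the resistant libraries, which overlapped.

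The surfactant members were all below 2.05 TPM or at that value in every library. SFTPB (ENSG00000168878, chromosome 2, 85657314 to 85668741, minus strand), whose product spreads the surfactant film, was at 0.0535, 0.0861 and 0.0463 TPM in the control and 0.0517, 0.161 and 0.0251 TPM in the resistant libraries. These values rest on an estimated 1 to 6 reads, and the groups overlapped. SFTPD (ENSG00000133661, chromosome 10, 79937740 to 79982614, minus strand), a collectin that binds microbial sugars, was at 0.469, 0.189 and 0.304 TPM in the control and 0.170, 0.176 and 0.275 TPM in the resistant libraries. The groups overlapped here as well, on an estimated 2.11 to 5.63 reads. These estimates are not whole numbers, so the length used here may differ from the authors' and the true reads are uncertain. Neither gene was tested. When all genes above 0 in any library were tested, the 4 low members had adjusted p-values of 0.276 to 0.836 by limma.

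NAPSA (ENSG00000131400, chromosome 19, 50358477 to 50365830, minus strand) was the only surfactant member above 1 TPM. It was at 1.81, 1.38 and 2.05 TPM in the control and 1.10, 1.45 and 1.12 TPM in the resistant libraries. The groups overlapped through control replicate 2 and resistant replicate 2. The mean was 1.75 ± 0.336 and 1.22 ± 0.194 TPM, and the log2 difference of -0.30 ± 0.16 (95% interval -0.67 to 0.06) did not pass the test (adjusted p = 0.150). Among 10 other aspartic proteases, 6 were tested, of which 2 rose, 1 fell and 3 did not pass. CTSD, the lysosomal cathepsin D, fell from 354 ± 14.1 to 283 ± 11.9 TPM (log2 -0.32).

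The rest of the surfactant system was present in part. The list held 24 genes outside the members: 11 were under 1 TPM in all 6 libraries and 13 were tested, of which 5 rose, 4 fell and 4 did not pass (median log2 change 0.14, against -0.00 over all genes tested). The other surfactant proteins were as low as SFTPB: SFTPA1 was at 0 to 0.194 TPM, SFTPA2 at 0.0709 to 0.287 TPM and SFTPC at 0 to 0.133 TPM over the 6 libraries. SFTPA1 and SFTPA2 are close copies of each other, so their values are uncertain. LPCAT1, an enzyme of surfactant lecithin synthesis, fell from 164 ± 2.10 to 91.3 ± 3.26 TPM (log2 -0.83 ± 0.04, adjusted p = 8.77e-06), and CHPT1, a choline phosphotransferase, from 10.7 ± 0.715 to 6.76 ± 0.342 TPM (log2 -0.60). LAMP3, a membrane protein of lamellar bodies that is also found in dendritic cells, rose as well, its mean going from 3.01 ± 0.193 to 10.4 ± 1.03 TPM (log2 1.51 ± 0.10, adjusted p = 2.52e-05), as did CSF2RA, a receptor subunit for the cytokine GM-CSF, from 7.41 ± 0.107 to 14.9 ± 1.76 TPM (log2 0.91).

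**Figure D4:**
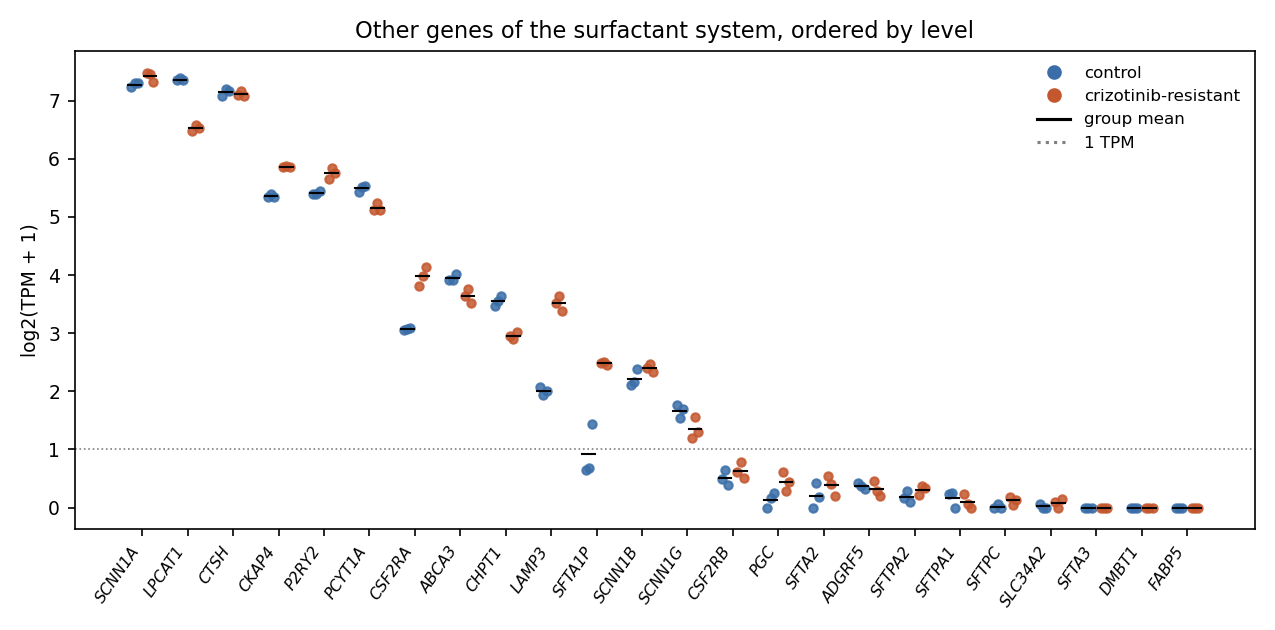
Level, as log2(TPM + 1), of the 24 surfactant system genes outside the members in each control (blue) and resistant (orange) library, ordered by level, with a bar at each group mean of the log2 values and a dotted line at 1 TPM. LPCAT1 and CHPT1 are lower and LAMP3 and CSF2RA higher in the resistant libraries, while SFTPA1, SFTPA2 and SFTPC lie under the line.

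Other secreted airway defence genes moved in both directions. Of 30 such genes outside the members, 14 were under 1 TPM in all 6 libraries and 15 were tested. Of these 15, 7 rose, 5 fell and 3 did not pass (median log2 change 0.38). The counts include genes that met the filter through 1 group alone and could hardly be tested without differing. These were CCL20, PGLYRP3 and PGLYRP4 through the resistant and BPIFA1 and BPIFA2 through the control libraries. S100A8, a subunit of the metal-binding protein calprotectin, was 22.8 ± 3.04 TPM in control and 145 ± 17.4 TPM in resistant cells and rose (log2 2.62 ± 0.12, adjusted p = 7.23e-06), as did DEFB1, an epithelial beta-defensin, which went from 10.4 ± 1.57 to 43.0 ± 5.69 TPM (log2 1.95 ± 0.12, adjusted p = 2.82e-05). S100A9, the other calprotectin subunit, named after its values were seen, was at 1817, 2145 and 1938 TPM in the control and 4969.8, 4755 and 4670.4 TPM in the resistant libraries, above SLPI in each. BPIFB1, a secreted protein of airway goblet cells, fell from 64.9 ± 6.42 to 18.5 ± 0.719 TPM (log2 -1.75 ± 0.08, adjusted p = 5.89e-06), and MSMB, a secreted protein of mucosal glands, from 12.3 ± 0.829 to 3.61 ± 0.884 TPM (log2 -1.54 ± 0.14, adjusted p = 1.01e-04). LTF and LYZ, the serous gland genes for lactoferrin and lysozyme, were at 0 to 0.0556 TPM and listed at 0.

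**Figure D5:**
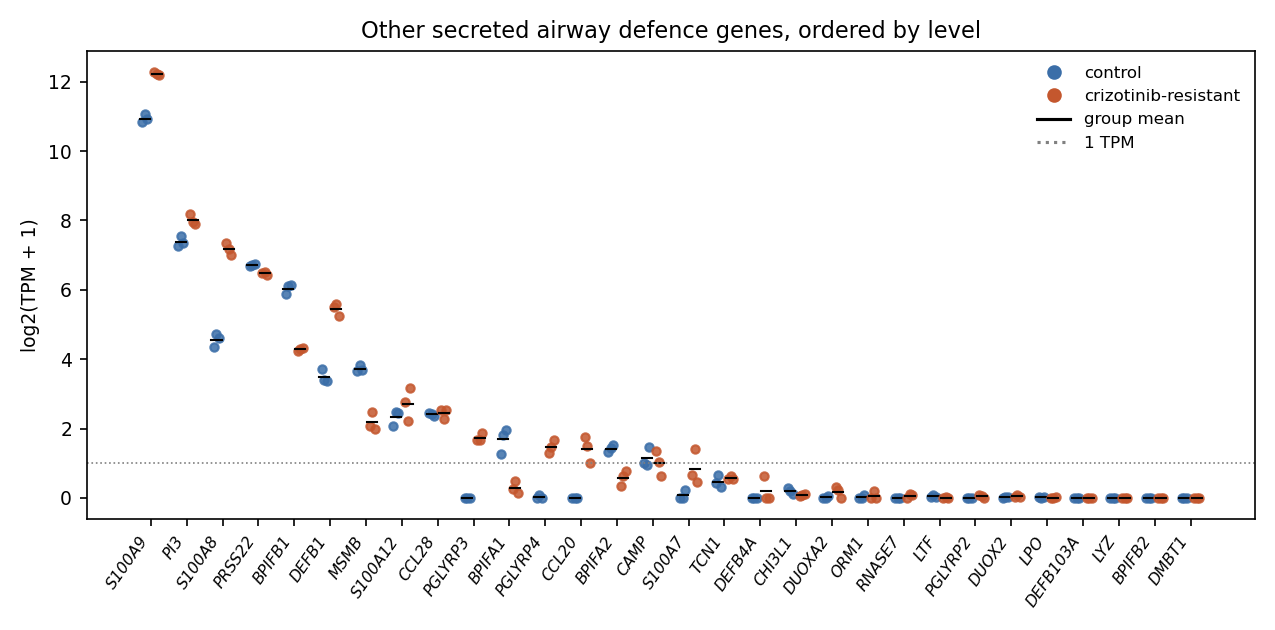
Level, as log2(TPM + 1), of the 30 other secreted airway defence genes in each control (blue) and resistant (orange) library, ordered by level, with a bar at each group mean of the log2 values and a dotted line at 1 TPM. S100A9, PI3, S100A8 and DEFB1 are higher and BPIFB1 and MSMB lower in the resistant libraries.

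Genes of the NF-kB, STAT3 and cytokine signals that act on acute-phase genes were measured beside the members. The list of 32 also held feedback inhibitors and the chemokine gene CCL20, so not each of its genes is a known controller. Of the 32, 26 were tested, of which 14 rose, 6 fell and 6 did not pass (median log2 change 0.20). NFKB2, which encodes an NF-kB subunit, rose from 32.3 ± 0.283 to 65.6 ± 1.67 TPM (log2 1.0), NFKBIA, an NF-kB inhibitor, from 79.7 ± 4.16 to 133 ± 4.53 TPM (log2 0.73), TNFAIP3, a feedback inhibitor, from 1.08 ± 0.0860 to 5.68 ± 0.509 TPM (log2 1.68), and LIF, an IL-6 family cytokine, from 21.7 ± 0.938 to 49.0 ± 2.08 TPM (log2 1.14). The other NF-kB subunits were divided. NFKB1 fell from 18.7 ± 0.774 to 14.6 ± 0.915 TPM (log2 -0.34) and RELA from 77.6 ± 3.55 to 67.3 ± 1.29 TPM (log2 -0.20). RELB, given above, rose (log2 0.66), and REL did not pass the test. NFKB1, RELA and REL were named after their values were seen. IL6 itself was under the filter and was not tested. Its highest control value was 0.0435 TPM, while the resistant libraries held 0.152 to 0.406 TPM of it. The untested TNF (group means 0.0454 and 0.571 TPM) and IL1A (0.139 and 0.583 TPM) did not overlap by group either, whereas IL36G did. IL1B, another cytokine gene of this list, rose from 0.260 ± 0.227 to 3.79 ± 0.850 TPM (log2 1.93). IL1B and CCL20 met the filter through their resistant libraries alone. TNF, IL1A, IL36G and IL1B were named after their values were seen. Whether these genes take part in the rise of SAA1 and SAA2 was not tested.

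Of 23 lung lineage transcription factors, 21 were tested, of which 6 rose, 8 fell and 7 did not pass. NKX2-1, named after its values were seen, was at 0.0348, 0.187 and 0 TPM in the control and 0.437, 0.732 and 0.751 TPM in the resistant libraries. Its groups did not overlap, but it was below the filter in all 6 libraries and was not tested. Whether NKX2-1 bears on the low levels of SFTPB and SFTPD was not tested either. FOXA1, a pioneer factor of airway epithelium, fell from 175 ± 0.418 to 88.5 ± 6.29 TPM (log2 -0.98), SOX2 from 5.67 ± 0.971 to 1.06 ± 0.155 TPM (log2 -1.69) and SPDEF, a goblet cell factor, from 64.6 ± 7.87 to 24.9 ± 1.12 TPM (log2 -1.34). GATA6 rose from 2.13 ± 0.456 to 6.63 ± 0.130 TPM (log2 1.3). FOXA2, also named after its values were seen, was listed at 0 in the 3 control libraries and was at 2.90, 2.45 and 2.38 TPM in the resistant libraries.

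Markers of other cell types that make these proteins ranged from absent to abundant. All 5 submucosal serous markers, all 5 hepatocyte markers, and 7 of 8 neutrophil and macrophage markers were under 1 TPM in every library. The hepatocyte list summed to 0 to 0.131 TPM in control and 0.419 to 1.05 TPM in resistant libraries, with TTR and SERPINA1 listed at 0 in all 6, and SAA4 is one of its 5 genes. The neutrophil and macrophage list summed to 0.396 to 0.418 TPM and 1.99 to 2.24 TPM, with MPO listed at 0, and MARCO, a macrophage scavenger receptor, went from 0.0671 ± 0.0213 to 1.36 ± 0.347 TPM. Of 10 alveolar type 2 markers, 3 of them members, 7 were under 1 TPM in all 6 libraries. The list summed to 19.1 to 20.9 TPM in control and 22.0 to 26.3 TPM in resistant libraries, most of it from ABCA3 and LAMP3. These went opposite ways: ABCA3 fell from 14.4 ± 0.691 to 11.5 ± 1.05 TPM (log2 -0.31), while LAMP3 rose. Of 6 goblet cell markers 3 were tested and all 3 fell (MUC5B, SPDEF and BPIFB1), and the list summed to 139.9 to 165 TPM and 43.3 to 44.9 TPM. MUC5B met the filter through its control libraries alone. Of 5 ciliated cell markers 2 were tested and both rose, and of 5 basal markers 2 were tested and KRT15 rose. The part of these markers in the levels of the members was not tested.

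Set in order of level per length, the members formed the same top pair in both groups. In the control libraries the order of means was SLPI, LCN2, WFDC2, NAPSA, SAA1, SFTPD, SCGB3A1, SAA2, SFTPB and PIGR. There, each neighbouring pair from NAPSA down to SFTPB overlapped over libraries, while SLPI, LCN2 and WFDC2 stood apart from the gene after them and SFTPB from PIGR. In the resistant libraries the order was SLPI, LCN2, SAA1, WFDC2, SAA2, NAPSA, SFTPD, SFTPB, PIGR and SCGB3A1, and neighbours overlapped only from SFTPB downwards. SAA1 had passed WFDC2 and NAPSA, and SAA2 had passed NAPSA, SFTPD and SCGB3A1.

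The genes whose pattern over the 6 libraries was most like that of SAA1, by the distance between log2(TPM + 1) values centred on each gene, were LTB at 0.89, MSN at 0.94 and KRT6A at 0.94. LTB, which encodes lymphotoxin beta, was at 0.325 ± 0.0286 and 16.5 ± 1.75 TPM, MSN, which encodes the actin linker moesin, at 38.3 ± 0.584 and 442 ± 13.1 TPM, and KRT6A, a keratin, at 0.580 ± 0.108 and 15.8 ± 1.37 TPM. No member was called lower, so no such list was made for a fall.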

How the data were processed

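The authors deposited 1 table of TPM values for 51537 genes in 6 libraries, 3 control and 3 resistant, and each deposited column sums to 1000000. Per the submitters' processing notes, HISAT2 was used. For its version, the counting tool and strand setting, the gene lengths, the build and any filter: not given in the sources used here. Per the labels' protocols, mRNA enriched from total RNA was made into libraries with a KAPA stranded kit. Groups came from the sample titles.

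TPM keeps no depth. Reads were estimated as TPM times the joined exon length in GENCODE 29, divided by the commonest smallest step of the library. These came out whole within 0.01 read for 67.2% to 67.9% of values above 0. They are estimates and served for the depth, for the read numbers of single genes, for 1 alternative and for the interval of SAA2. The read ratio of SAA1 to SAA2 and the chi-square between libraries also rest on these estimates, which were not whole for SAA1 and SFTPD. TPM was used in all other results.

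Limma 3.58.1 (R 4.3.3, statmod 1.5.0) was fitted to log2(TPM + 1) on the group, with a mean-variance trend and robust moderation, for genes that reached 1 TPM in 3 or more libraries. It was two-sided with Benjamini-Hochberg adjustment over 16077 genes. The fit was also run on simulated data with far fewer changed genes than were called here. That run therefore gives no error rate for these data. Values in the text are mean ± SD with n = 3. A log2 change is the resistant minus the control mean, with its SE where given. Motif and figure work used Python 3.11.15, and positions are 1-based.

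All 10 members were named. Each gene list gave up to 4 called genes whose mean reached 5 TPM in 1 group, by size of change, or its most abundant gene where fewer than 2 were called. Of 268 list entries, 267 matched a gene. The result of 1 gene that this rule names is not reported here. Genes cited only as at or near 0 were also named after their values were seen. The members and lists were chosen with earlier results of these data known. Within a group, no pair of libraries agreed within counting noise (chi-square per gene 4.05 to 11.9, where noise gives a value near that of 1), so none was treated as 1 library deposited again; this does not show that they were separate cultures. The labels name no batch. Alternatives were another pseudocount, 2 other filters, median-ratio scaling, a replicate block, plain moderation, limma-voom on rebuilt reads, and leaving out each library.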

Additional observations from a re-analysis of the deposited data

How the results depend on the processing

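Over 13 alternatives, 76 values of the 6 tested members were compared with the main ones: 74 kept their direction and their side of the threshold, 1 lost its call, 1 gained one and 0 turned. The lost call was that of LCN2 without control replicate 3 (log2 0.23, adjusted p = 0.0509), and the gained call was that of SLPI with limma-voom on rebuilt reads (log2 0.14, adjusted p = 0.0167). Over the alternatives the log2 change ranged from 3.50 to 4.69 for SAA1, 2.35 to 5.76 for SAA2, 1.18 to 1.52 for WFDC2, 0.21 to 0.32 for LCN2, 0.06 to 0.14 for SLPI and -0.48 to -0.22 for NAPSA. The adjusted p ranged from 5.78e-04 to 0.0509 for LCN2, 0.0167 to 0.352 for SLPI and 0.0725 to 0.367 for NAPSA. SAA2 and NAPSA were below the filter at 5 TPM and have no value there. When 1 library was left out, the genes tested were still those that met the filter over all 6 libraries. SAA2 reached 1 TPM only in the resistant libraries, so its values without 1 of these rest on a filter that used the omitted library. Members called higher numbered 3 to 4 when 1 library was left out and 3 to 5 under the other settings, and 0 were called lower in each. Over all genes, 3852 were called higher and 3963 lower, with 3316 to 3604 and 3114 to 4042 when 1 library was left out. With the replicate block, 3433 genes were higher and 3423 lower, and 4 members were called higher. In the labels, control and resistant libraries share only a number. Deviations of same-numbered libraries correlated at -0.06, 0.00 and -0.02, which cannot show whether they shared a culture or a day. Depth limits PIGR, SCGB3A1, SFTPB and SFTPD, which had an estimated 6 reads or fewer in each library. The estimates of SFTPD were not whole, so its true reads may be more or fewer.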

Other observations

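Acute-phase genes other than SAA1, SAA2 and LCN2 were mostly silent in these cells. Of 20 such genes, 16 were under 1 TPM in all 6 libraries, CRP was listed at 0 in each, and HP, which encodes haptoglobin, was at 0.0204 TPM or less. Of the 4 tested, 1 rose, 1 fell and 2 did not pass by limma. C3, the central complement component, was at 9.87, 9.95 and 10.6 TPM in the control and 50.1, 47.4 and 45.0 TPM in the resistant libraries (log2 2.12 ± 0.06, adjusted p = 1.01e-06). CP, which encodes the copper carrier ceruloplasmin and was named after its values were seen, fell from 4.02 ± 0.610 to 0.301 ± 0.0911 TPM (log2 -1.94, adjusted p = 5.84e-05). CP was under 1 TPM in every resistant library and met the filter through its control libraries alone. The rise and the fall in this class thus rest on 1 gene each.

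CCL20, a chemokine made by epithelium, was listed at 0 in the 3 control libraries and was at 2.39, 1.82 and 1.0 TPM in the resistant libraries. The peptidoglycan recognition genes PGLYRP3 and PGLYRP4 were at 0 and 0.0173 TPM on average in the control and 2.32 and 1.81 TPM in the resistant libraries. BPIFA1, a secreted protein of upper airway epithelium, went the other way, from 2.29 ± 0.769 to 0.234 ± 0.160 TPM (log2 -1.39, adjusted p = 0.00173). BPIFA1 was under 1 TPM in every resistant library and met the filter through its control libraries alone, so its p-value carries the limit given for SAA2. CCL20, PGLYRP3 and PGLYRP4 met the filter through their resistant libraries alone. These 4 genes were named after their values were seen.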
